A study of Caenorhabditis elegans with 4 samples.

Results

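The pals genes form a large family of Caenorhabditis elegans genes named after a protein signature that the human gene ALS2CR12 also carries. They are best known from the intracellular pathogen response, a transcriptional program that the worm mounts in its intestine when microsporidia or the Orsay virus enter the cells, and that proteotoxic stress can also set off. Genetic work placed pals-22 as a repressor of this program and pals-25, its neighbour in the same operon, as the activator it holds back; pals-17 was described as a second repressor, with pals-16 and pals-20 acting in the opposite direction. Many other members are known as outputs of the program, and a reporter driven by the pals-5 promoter is its standard readout. The biochemical activity of the proteins is not known.

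The members were all genes whose symbol in the deposited count tables is pals followed by a number, which gave 39 of 46881 listed genes. All 39 overlapped their annotated position in WBcel235, where 38 are protein-coding and pals-36 is a pseudogene. Hermaphrodites of the wild-type strain Bristol N2 were compared after feeding on the natto strain MI-OMU01 of Bacillus subtilis or on Escherichia coli OP50, the usual laboratory diet. Worms of both groups were 3 days old at transfer and were kept for 1 day on mNGM plates covered with the bacteria, and about 200 worms were collected per group. Poly(A) RNA of whole animals was sequenced in 2 libraries per group, with 17601286 and 24381952 counted reads in the MI-OMU01 libraries and 16962082 and 17327035 in the OP50 libraries. The labels do not state whether replicate libraries stem from separate cultures, and p-values here reflect only library-to-library spread, possibly technical.

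Worms fed MI-OMU01 held more pals transcript than worms fed OP50. Over the whole family the MI-OMU01 libraries held 149 and 152 CPM (read counts divided by the library's total after TMM scaling and given per 1e6 reads), and the OP50 libraries 68.7 and 78.7 CPM. In edgeR's quasi-likelihood test, adjusted by Benjamini-Hochberg over all 14967 tested genes, 15 of the 39 genes rose and none fell at an adjusted p of 0.05. Across all tested genes, 14.6% were called higher and 15.2% lower. Of the 39 genes 26 had enough reads to be tested, so 11 tested genes were not called and 13 were not tested. The rises ran from 1.63-fold (pals-23) to 12.4-fold (pals-32), and 11 of them were at least 2-fold.

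Read numbers were low. The family drew 9013 reads in the 4 libraries together, and the standard error of the log2 fold change ran from 0.18 (pals-24) to 0.73 (pals-3) among tested members. The filter kept a gene when it reached 0.573 CPM, equal to 10 reads at the median library size, in 2 libraries. Both OP50 libraries reached that level for 18 members, of which 10 rose. A further 8 members were not at that level in both OP50 libraries and needed at least 1 MI-OMU01 library to pass, so the 5 rises among them (pals-3, pals-15, pals-31, pals-32 and pals-37) are not independent of the filter. The median log2 fold change of the 26 tested members was 0.94, beside 0.03 for all tested genes. Among the 7393 tested genes whose mean level lay in the members' range of 0.499 to 15.2 CPM, the median was 0.15, and 15.7% were called higher and 10.8% lower. Both MI-OMU01 libraries lay above both OP50 libraries for 29 of the 39 members and below them for 1 (pals-30). The groups overlapped for 9, among them pals-12, which had no read in any library. Over all genes with a read, 28.8% lay above and 22.8% below.

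**Figure D1:**
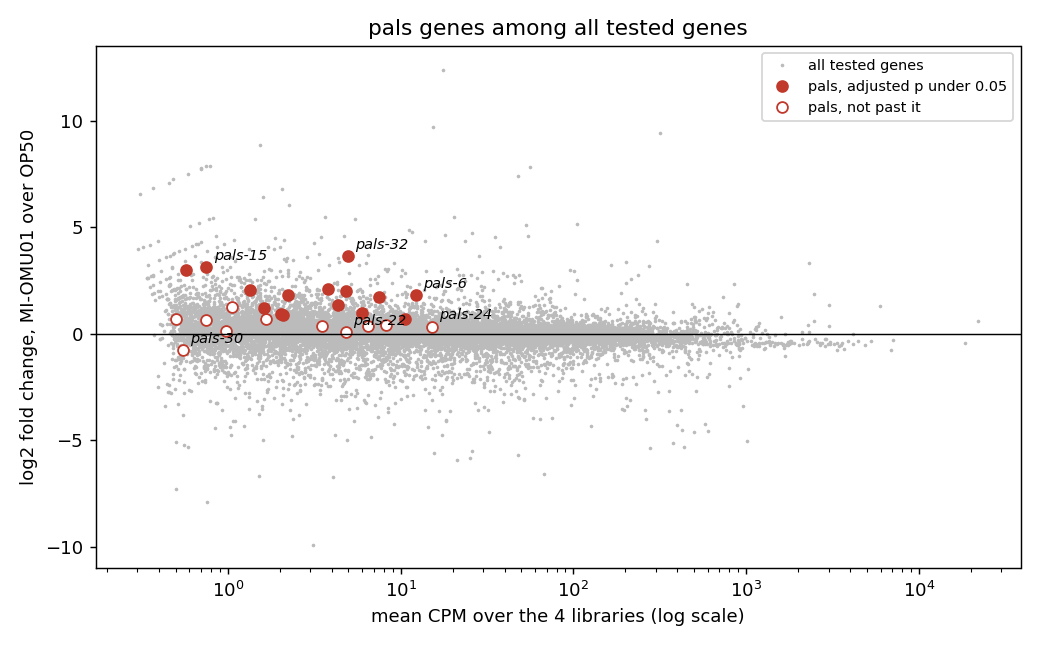
Each grey point is 1 of 14967 tested genes, placed by its mean CPM over the 4 libraries (log axis) and its log2 fold change, MI-OMU01 over OP50. The 26 tested pals genes are circles, filled where the adjusted p was under 0.05 (15 genes) and open where it was not (11 genes); they lie between 0.499 and 15.2 CPM, and pals-30 is the only circle below 0.

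The genes sit in groups along the genome. With neighbours joined when at most 100 kb apart, the 39 genes fell into 6 clusters of 2 to 14 genes and 5 single genes. The chromosome III genes held 51.2% and 50.3% of all pals reads in the MI-OMU01 libraries, against 69.0% and 72.1% in the OP50 libraries. Chromosome V genes held 21.8% and 22.8% in the MI-OMU01 libraries, against 9.29% and 11.4% in the OP50 libraries. Of the 15 genes on chromosome I 7 were tested and 5 rose, and of 14 on chromosome III 11 were tested and 4 rose. Of 2 genes on chromosome IV 1 was tested and not called, and of 8 on chromosome V 7 were tested and 6 rose. Over all tested genes 14.6% were called higher and 15.2% lower.

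**Figure D2:**
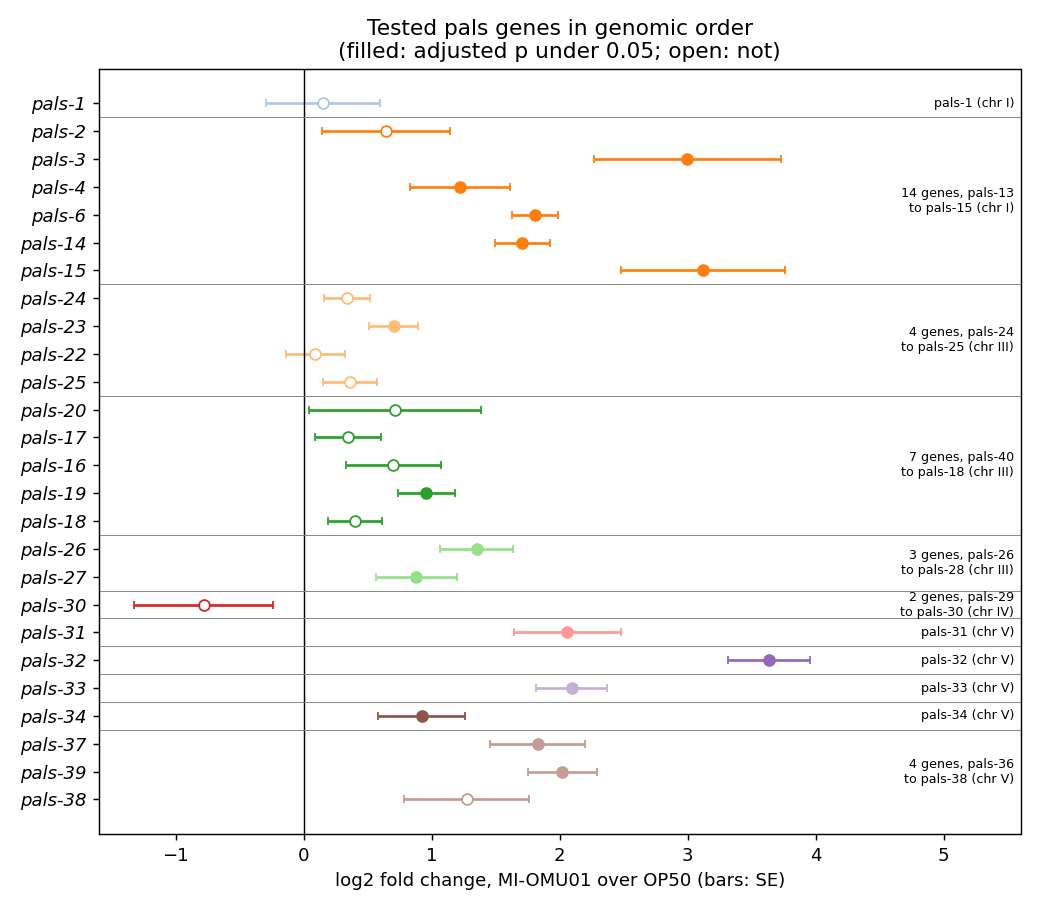
Log2 fold changes, MI-OMU01 over OP50, with standard errors as bars, for the 26 tested pals genes in genomic order from the top, divided by cluster (n = 2 libraries per group). Filled points passed an adjusted p of 0.05; the chromosome III clusters of pals-22 and pals-17 hold 1 filled point each, at 0.70 for pals-23 and 0.96 for pals-19.

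None of the 5 pals genes known as regulators of the program passed the threshold. The repressor gene pals-22 (WBGene00016216, chromosome III, 132418 to 134401 in WBcel235) stood at 4.50 and 5.42 CPM in MI-OMU01 libraries and at 4.85 and 4.51 CPM in OP50 libraries. These ranges overlapped, and the log2 fold change of 0.09 (SE 0.23) had an adjusted p of 0.815 in edgeR. Its antagonist pals-25 (WBGene00020540, chromosome III, 134494 to 137975) stood at 7.37 and 7.19 CPM in MI-OMU01 libraries and at 5.46 and 5.85 CPM in OP50 libraries. The groups did not overlap here, but a log2 fold change of 0.36 (SE 0.21) did not pass (adjusted p = 0.214 in edgeR).

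The other repressor gene, pals-17 (WBGene00022346), had 3.63 and 4.20 CPM in MI-OMU01 libraries and 3.07 and 3.11 CPM in OP50 libraries. Its log2 fold change was 0.35 (SE 0.26, edgeR adjusted p = 0.351). For pals-16 (WBGene00022337), one of the genes with the opposite role, the values were 2.44 and 1.69 CPM in MI-OMU01 libraries and 1.04 and 1.46 CPM in OP50 libraries, with a log2 fold change of 0.70 (SE 0.37, edgeR adjusted p = 0.175). The remaining regulator, pals-20 (WBGene00194746), drew 16 and 10 reads in MI-OMU01 libraries and 10 and 2 reads in OP50 libraries. Its groups overlapped, and its log2 fold change of 0.71 had an SE of 0.67 (edgeR adjusted p = 0.481). The opposite strand carries Y82E9BR.5, whose exons cover 45.5% of pals-20, so reads of the pair may be mixed. None of these 5 regulators passed the threshold under any alternative setting tried.

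Beside the regulators some genes rose and others were not called. In the cluster of pals-24, pals-23, pals-22 and pals-25, which spans 17.5 kb, summed levels were 42.6 and 42.4 CPM in MI-OMU01 libraries and 27.97 and 35.8 CPM in OP50 libraries. Of these 4 genes pals-23 (WBGene00016218) alone passed the threshold, with 13.1 and 13.4 CPM in MI-OMU01 libraries and 6.75 and 9.50 CPM in OP50 libraries (1.63-fold, log2 fold change 0.70, SE 0.19, edgeR adjusted p = 0.00829). That call ended without OP50 replicate 1 (adjusted p = 0.105; 9.21e-05 to 0.105 over the alternatives). The next gene, pals-24 (WBGene00016219), was the most abundant member per exon length in both groups, at 18.8 CPM per kb in MI-OMU01 and 14.8 CPM per kb in OP50 worms. Its libraries held 17.6 and 16.4 CPM in the MI-OMU01 group and 10.9 and 15.96 CPM in the OP50 group, and its log2 fold change of 0.34 did not pass (edgeR adjusted p = 0.176). Without OP50 replicate 2 the adjusted p of pals-24 was 0.00606 and with total counts as library sizes 0.0424 (0.00606 to 0.874 over the alternatives).

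The second cluster of chromosome III holds 7 genes over 29.3 kb, pals-40, pals-21, pals-20, pals-17, pals-16, pals-19 and pals-18. Of these pals-19 (WBGene00044761) rose 1.94-fold, with 7.75 and 8.06 CPM in MI-OMU01 libraries and 3.68 and 4.45 CPM in OP50 libraries (log2 fold change 0.96, SE 0.22, edgeR adjusted p = 0.00238). Its neighbour pals-18 (WBGene00022353) had 10.5 and 8.41 CPM in MI-OMU01 libraries and 6.01 and 8.22 CPM in OP50 libraries, a log2 fold change of 0.40 that did not pass (edgeR adjusted p = 0.172; 0.0332 without OP50 replicate 2; 0.0332 to 0.682 over the alternatives). At the other end pals-40 and pals-21 drew at most 9 reads in any library and were not tested.

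In the third cluster of chromosome III, pals-26 to pals-28, 2 of 3 genes were tested and both rose. Across all tested genes 14.6% were called higher and 15.2% lower. For pals-26 (WBGene00007131, 4376503 to 4379200) the libraries held 5.04 and 7.51 CPM in the MI-OMU01 group and 3.07 and 1.89 CPM in the OP50 group, a rise of 2.55-fold (log2 fold change 1.35, SE 0.28, edgeR adjusted p = 0.00109). The next gene, pals-27 (WBGene00007132), had 2.60 and 2.79 CPM in MI-OMU01 libraries and 1.47 and 1.46 CPM in OP50 libraries. It was 1.84-fold higher (edgeR adjusted p = 0.0425). With all libraries kept, pals-27 did not pass in DESeq2 (0.199), in limma-voom (0.0525) or in edgeR with no filter on low counts (0.0671). Its call ended when any 1 of the 4 libraries was left out, with adjusted p-values of 0.0945 to 0.225 (0.0174 to 0.225 over all alternatives). The last gene, pals-28, drew 4 and 9 reads in MI-OMU01 libraries and 1 and 0 reads in OP50 libraries and was not tested.

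The large cluster of chromosome I spans 61.3 kb, from 13083321 to 13144588, and holds 14 genes, including the reporter gene pals-5. Its summed level was 38.0 and 39.1 CPM in MI-OMU01 libraries and 12.9 and 11.3 CPM in OP50 libraries, a ratio of 3.19. Most of this came from 2 members near one end: pals-6 and pals-14 held 81.6% and 78.0% of the cluster's reads in MI-OMU01 libraries and 72.4% and 77.3% in OP50 libraries. The gene pals-6 (WBGene00007660, 13136467 to 13138521) stood at 20.7 and 17.7 CPM in MI-OMU01 libraries and at 5.83 and 5.12 CPM in OP50 libraries. The groups were far apart, and the rise was 3.50-fold (log2 fold change 1.81, SE 0.18, edgeR adjusted p = 2.51e-07). Beside it pals-14 (WBGene00009061, 13139132 to 13141789) stood at 10.3 and 12.8 CPM in MI-OMU01 libraries and at 3.50 and 3.59 CPM in OP50 libraries, 3.27-fold higher (log2 fold change 1.71, SE 0.21, edgeR adjusted p = 4.29e-06).

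Next in line, pals-15 (WBGene00044707) drew 18 and 44 reads in MI-OMU01 libraries and 4 and 1 reads in OP50 libraries. It rose 8.71-fold (log2 fold change 3.12, SE 0.64, edgeR adjusted p = 0.000871), and leaving out OP50 replicate 1 gave a log2 fold change of 4.33, and leaving out OP50 replicate 2 gave 2.46. On the other side of pals-6, pals-4 (WBGene00007658) had 1.68 and 2.83 CPM in MI-OMU01 libraries and 1.17 and 0.792 CPM in OP50 libraries, 2.33-fold higher (edgeR adjusted p = 0.0229). The pals-4 call was lost without MI-OMU01 replicate 2 (adjusted p = 0.396), without OP50 replicate 2 (0.0843) and in DESeq2 (0.117), within a range of 0.00673 to 0.396 over the alternatives. The gene pals-3 (WBGene00007657) drew 18 and 27 reads in MI-OMU01 libraries and 0 and 4 reads in OP50 libraries. Its log2 fold change was 2.998 (SE 0.73, edgeR adjusted p = 0.00383). It was 2.002 without OP50 replicate 1, when the call ended (adjusted p = 0.0607), and 7.37 without OP50 replicate 2, when the OP50 group was left with no read; adjusted p ran from 0.000246 to 0.0607 over the alternatives.

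The exons of pals-12 lie within those of pals-3 on the same strand over 99.5% of their length, and pals-12 had no read in any library. How reads shared by overlapping genes were counted is not given in the sources used here, so the pals-3 and pals-12 values cannot be separated. A count of 0 allows up to 0.170 and 0.123 CPM of raw totals in the MI-OMU01 libraries and 0.177 and 0.173 CPM in the OP50 libraries, counting error only.

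The reporter gene pals-5 (WBGene00007659) was low in all libraries. It drew 9 and 23 reads in MI-OMU01 libraries and 2 and 6 reads in OP50 libraries, or 0.488 and 0.904 CPM against 0.123 and 0.365 CPM. Both MI-OMU01 values were above both OP50 values, but the gene was below the filter, and with no filter on low counts its adjusted p in edgeR was 0.126. Of the other genes of this cluster, pals-2 was tested and not called (log2 fold change 0.64, SE 0.50, edgeR adjusted p = 0.379). The genes pals-7, pals-8, pals-9, pals-10, pals-11 and pals-13 drew at most 15 reads in any library. Among them pals-7 had 15 and 11 reads in MI-OMU01 libraries and 3 and 1 in OP50 libraries, and with no filter its adjusted p in edgeR was 0.0450; in that fit 9.34% of all genes with a read were called higher and 11.5% lower. Apart from the cluster, pals-1 on the same chromosome had 24 and 20 reads in MI-OMU01 libraries and 17 and 13 in OP50 libraries, with a log2 fold change of 0.15 (SE 0.45, edgeR adjusted p = 0.843).

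**Figure D3:**
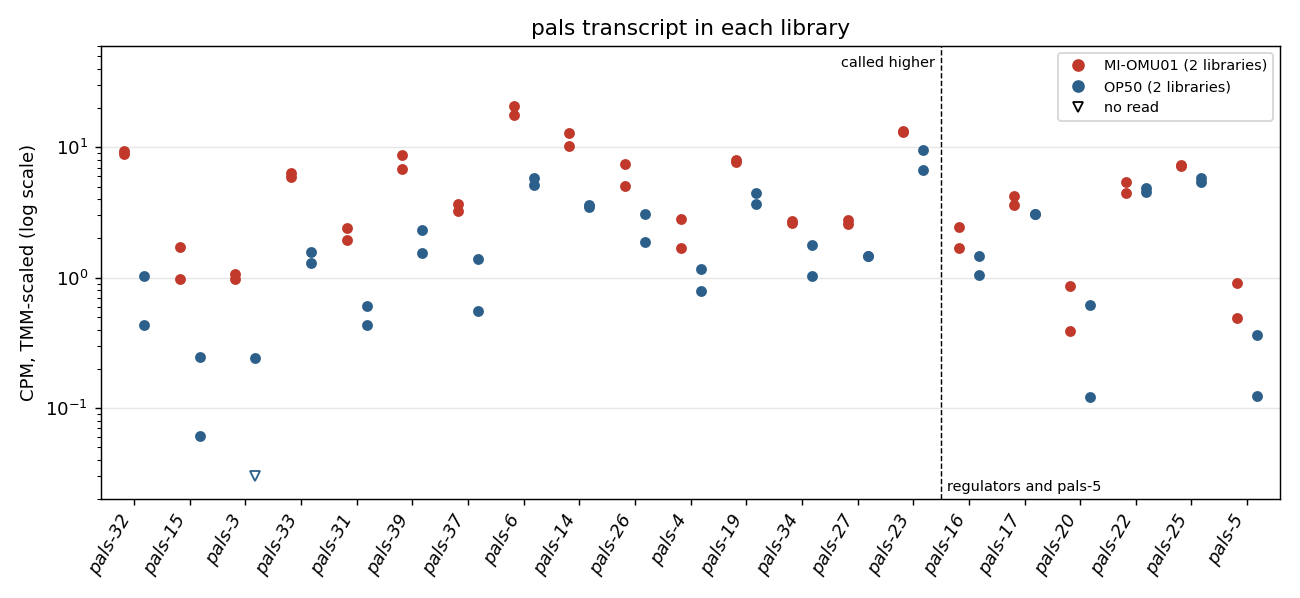
CPM in each library (log axis) of the 15 pals genes called higher, ordered by fold change from the left, and, right of the dashed line, of the 5 regulators and pals-5. MI-OMU01 points stand left of OP50 points of the same gene, and a triangle at the bottom marks the OP50 library in which pals-3 had no read; the groups do not overlap for any of the 15 genes and do overlap for pals-20 and pals-22.

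Chromosome V held the member with the largest fold change among the 26 tested. The single gene pals-32 (WBGene00016281, 2896637 to 2898434) drew 174 and 228 reads in MI-OMU01 libraries and 7 and 17 reads in OP50 libraries, or 9.43 and 8.96 CPM against 0.429 and 1.04 CPM. It rose 12.4-fold (log2 fold change 3.64, SE 0.32, edgeR adjusted p = 3.35e-08). The size of the rise depended on the OP50 library kept: the log2 fold change was 3.10 with replicate 1 dropped and 4.40 with replicate 2 dropped. In worms fed MI-OMU01 its level per exon length was 7.93 CPM per kb, against 0.631 CPM per kb in worms fed OP50. On the same scale pals-22 was at 5.56 CPM per kb in MI-OMU01 and 5.24 CPM per kb in OP50 worms.

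The other single genes of chromosome V also rose. The gene pals-33 (WBGene00021081, 3673380 to 3676632) stood at 5.96 and 6.33 CPM in MI-OMU01 libraries and at 1.29 and 1.58 CPM in OP50 libraries, 4.27-fold higher (log2 fold change 2.09, SE 0.28, edgeR adjusted p = 7.21e-06). Its values lay close together within each group. The rise of pals-31 (WBGene00018614) was 4.17-fold, with 36 and 61 reads in MI-OMU01 libraries and 7 and 10 reads in OP50 libraries (log2 fold change 2.06, SE 0.42, edgeR adjusted p = 0.000843). That of pals-34 (WBGene00017823) was 1.89-fold and close to the threshold (edgeR adjusted p = 0.0469). Its libraries held 2.71 and 2.63 CPM in the MI-OMU01 group and 1.78 and 1.04 CPM in the OP50 group. The gene passed under 4 of 10 alternatives. In edgeR it missed with DESeq2 size factors (adjusted p = 0.0525) and with no filter on low counts (0.0530). For pals-34 the adjusted p was 0.144 without MI-OMU01 replicate 1, 0.145 without MI-OMU01 replicate 2, 0.279 without OP50 replicate 2 and 0.192 in DESeq2, in a range of 0.0137 to 0.279 over the alternatives.

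The cluster of pals-36, pals-37, pals-39 and pals-38 on chromosome V spans 12.6 kb. Its summed level was 12.4 and 14.3 CPM in MI-OMU01 libraries and 2.45 and 4.75 CPM in OP50 libraries, a ratio of 3.70. Here pals-39 (WBGene00008301, 12441806 to 12443835) rose 4.06-fold, with 6.83 and 8.76 CPM in MI-OMU01 libraries and 1.53 and 2.31 CPM in OP50 libraries (log2 fold change 2.02, SE 0.27, edgeR adjusted p = 8.27e-06). Beside it pals-37 (WBGene00138721) rose 3.55-fold, with 3.25 and 3.69 CPM in MI-OMU01 libraries and 0.552 and 1.40 CPM in OP50 libraries (log2 fold change 1.83, SE 0.37, edgeR adjusted p = 0.000751). That log2 fold change fell to 1.27 once OP50 replicate 1 was dropped, and rose to 2.64 once OP50 replicate 2 was dropped instead. An antisense RNA, anr-30, covers 41.4% of the exons of pals-37 and drew at most 5 reads in any library.

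The last gene there, pals-38 (WBGene00008302), had 1.84 and 1.18 CPM in MI-OMU01 libraries and 0.307 and 0.914 CPM in OP50 libraries. The groups did not overlap, and the log2 fold change of 1.27 (SE 0.49) missed the threshold (edgeR adjusted p = 0.0581). It passed under 6 of 10 alternatives, among them those without MI-OMU01 replicate 2 (0.0451) and without OP50 replicate 2 (0.00701), in a range of 0.00701 to 0.403. Leaving out OP50 replicate 1 lowered its log2 fold change to 0.66, and leaving out OP50 replicate 2 raised it to 2.25. The pseudogene pals-36 drew 8 and 16 reads in MI-OMU01 libraries and 1 and 2 reads in OP50 libraries; it was not tested, and with no filter on low counts its adjusted p in edgeR was 0.0429.

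Neither gene of the chromosome IV pair was called. For pals-30 (WBGene00013294) the libraries held 6 and 12 reads in the MI-OMU01 group and 13 and 10 reads in the OP50 group, or 0.325 and 0.472 CPM against 0.797 and 0.609 CPM. It was the only tested member with a fold change below 1 (log2 fold change -0.78, SE 0.54), and it did not pass (edgeR adjusted p = 0.319). Its neighbour pals-29 drew 7 and 9 reads in MI-OMU01 libraries and 3 and 5 reads in OP50 libraries and was not tested.

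**Figure D4:**
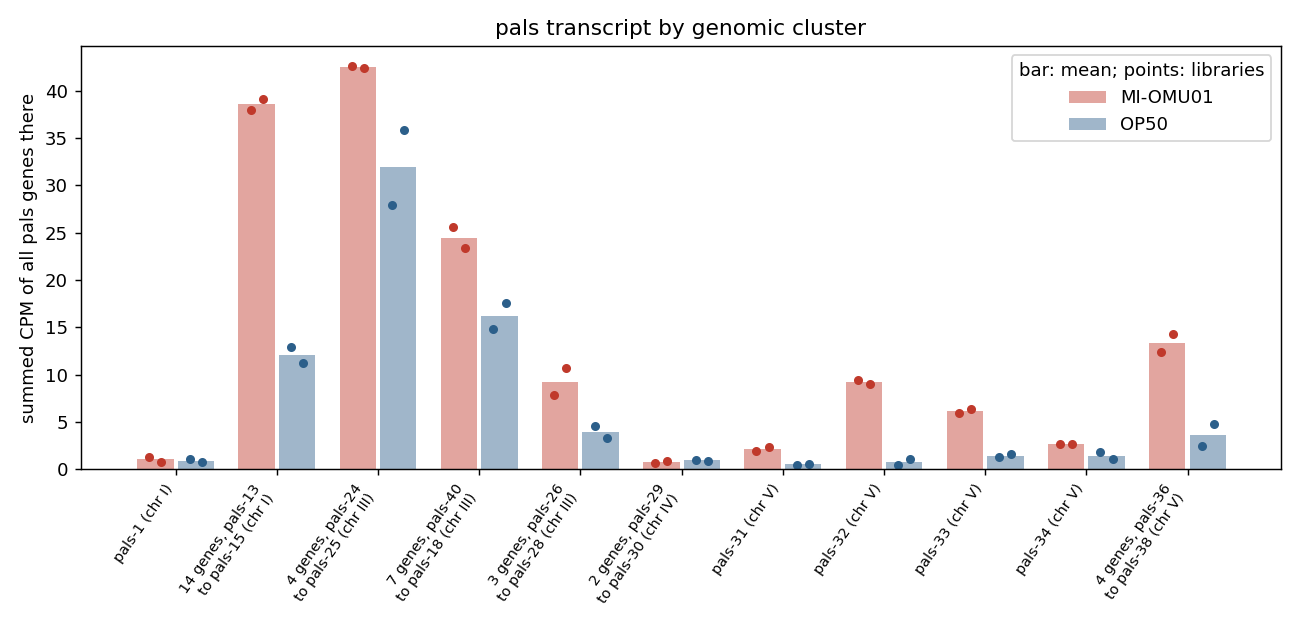
Summed CPM of all pals genes of each genomic cluster or single gene, tested or not, with bars for the mean and points for the 2 libraries per group. The MI-OMU01 points lie above the OP50 points everywhere but at pals-1, where they overlap, and at the chromosome IV pair, where they lie below; the chromosome I cluster of 14 genes stood at 38.0 and 39.1 CPM in MI-OMU01 libraries and 12.9 and 11.3 CPM in OP50 libraries.

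Non-pals genes inside the clusters were few. Of 10 protein-coding neighbours that start within a cluster 5 were tested and 2 rose, both in the cluster of pals-17, beside the 14.6% and 15.2% of all tested genes called higher and lower. The F-box gene fbxa-138 drew 0.759 and 1.02 CPM in MI-OMU01 libraries and 0.184 and 0.183 CPM in OP50 libraries, 4.79-fold higher (edgeR adjusted p = 0.00866; 0.00421 to 0.167 over the alternatives). It was below the filter level in both OP50 libraries, so its rise is not independent of the filter, and the call ended without MI-OMU01 replicate 2 (0.167), without either OP50 library (0.0627 and 0.0567) and in DESeq2 (0.0879). Y82E9BR.5, which lies opposite pals-20, rose 2.38-fold, with 2.28 and 2.12 CPM in MI-OMU01 libraries and 0.982 and 0.853 CPM in OP50 libraries (edgeR adjusted p = 0.0143; 0.00496 to 0.0892 over the alternatives). Its call ended without either MI-OMU01 library (0.0789 and 0.0618) and in DESeq2 (0.0892). The neighbour of pals-22 and pals-23 that was tested, C29F9.2, had a log2 fold change of -0.24 (edgeR adjusted p = 0.526).

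Other genes of the intracellular pathogen response were taken from a list of 23 non-pals genes written from general knowledge. The list was chosen with earlier results of these data known, so its counts are not independent of them. Of the 23 listed genes 21 were tested, 12 rose and 1 fell, beside the 14.6% and 15.2% of all tested genes called higher and lower. The median log2 fold change of the 21 was 0.84. Among 11 listed outputs of the program 6 rose and 1 fell, among 7 parts of its ubiquitin ligase 3 rose and none fell, and among 5 regulators 3 rose and none fell.

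Of the outputs, B0507.8 rose most. It stood at 9.70 and 8.57 CPM in MI-OMU01 libraries and at 1.84 and 2.56 CPM in OP50 libraries, 4.13-fold higher (log2 fold change 2.05, SE 0.25, edgeR adjusted p = 2.53e-06). Its near neighbour ddn-1 (B0507.10) stood at 12.14 and 11.2 CPM in MI-OMU01 libraries and at 2.52 and 3.84 CPM in OP50 libraries, 3.66-fold higher (edgeR adjusted p = 2.94e-06). The groups were well apart for both. F26F2.1, one of the first transcripts used to follow microsporidia infection, had 5.15 and 6.48 CPM in MI-OMU01 libraries and 1.90 and 3.71 CPM in OP50 libraries, 2.08-fold higher (edgeR adjusted p = 0.00809). F26F2.1 no longer passed without MI-OMU01 replicate 2 (adjusted p = 0.0664) or without OP50 replicate 1 (0.112), in a range of 1.96e-05 to 0.112. The gene eol-1, which codes for a relative of mammalian decapping exonucleases, had 3.36 and 3.06 CPM in MI-OMU01 libraries and 1.90 and 2.07 CPM in OP50 libraries and did not pass (log2 fold change 0.69, edgeR adjusted p = 0.0834; 0.0336 with total counts as library sizes; 0.0336 to 0.313 over the alternatives). The gene that fell was sdz-6, with 2 and 13 reads in MI-OMU01 libraries and 18 and 34 reads in OP50 libraries (log2 fold change -2.22, SE 0.55, edgeR adjusted p = 0.00440). For sdz-6 the log2 fold change was -3.79 without MI-OMU01 replicate 2 and -1.63 without MI-OMU01 replicate 1, and its call ended without OP50 replicate 2 (adjusted p = 0.0800; 6.76e-05 to 0.0800 over the alternatives).

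The ubiquitin ligase of the program is built on the cullin CUL-6 with Skp1-related adaptors and F-box proteins. The cullin gene cul-6 had 6.67 and 7.86 CPM in MI-OMU01 libraries and 4.42 and 5.97 CPM in OP50 libraries, a log2 fold change of 0.49 that did not pass (SE 0.23, edgeR adjusted p = 0.116). It passed with total counts as library sizes (0.0349) and without OP50 replicate 2 (0.0328), in a range of 0.0328 to 0.524. The adaptor gene skr-5 drew 34 and 56 reads in MI-OMU01 libraries and 10 and 9 reads in OP50 libraries, 3.47-fold higher (log2 fold change 1.80, SE 0.41, edgeR adjusted p = 0.00230). The adaptor gene skr-4 rose 1.79-fold and the F-box gene fbxa-158 3.06-fold (edgeR adjusted p = 0.00843 and 0.0131). The skr-4 call ended without MI-OMU01 replicate 1 (0.117; 0.000290 to 0.117 over the alternatives), and that of fbxa-158 without either MI-OMU01 library, without OP50 replicate 1 and in DESeq2 (0.00379 to 0.141), with a log2 fold change of 2.27 without OP50 replicate 2. Of these 3 adaptor and F-box genes, skr-5 and fbxa-158 did not reach the filter level in both OP50 libraries and needed at least 1 MI-OMU01 library to pass, so their rises are not independent of the filter. The adaptor gene skr-3 did not pass (log2 fold change -0.05, edgeR adjusted p = 0.833). Nor did rcs-1, which codes for a RING protein of the ligase, at 10.2 and 10.8 CPM in MI-OMU01 libraries and 14.6 and 13.1 CPM in OP50 libraries (log2 fold change -0.39, SE 0.17, edgeR adjusted p = 0.0921; 0.0318 to 0.356 over the alternatives).

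Among the non-pals regulators, the bZIP transcription factor gene zip-1, which is needed for the induction of many outputs, stood at 36.05 and 38.4 CPM in MI-OMU01 libraries and at 21.2 and 24.7 CPM in OP50 libraries, 1.62-fold higher (log2 fold change 0.70, SE 0.14, edgeR adjusted p = 0.000593). Among genes of negative regulators, pnp-1 and sta-1 rose and lin-35 was not called. The purine nucleoside phosphorylase gene pnp-1, listed as K02D7.1, stood at 169 and 181 CPM in MI-OMU01 libraries and at 97.0 and 101 CPM in OP50 libraries, 1.77-fold higher (edgeR adjusted p = 4.64e-06), and the STAT-like gene sta-1 rose 1.75-fold (edgeR adjusted p = 0.000600; 0.0600 without MI-OMU01 replicate 2; 6.33e-10 to 0.0600 over the alternatives). The retinoblastoma-like gene lin-35 lay lower in the MI-OMU01 libraries, at 82.9 and 76.5 CPM, than in the OP50 libraries, at 101 and 92.3 CPM, and did not pass (log2 fold change -0.28, SE 0.11, edgeR adjusted p = 0.0645). It passed without OP50 replicate 2 (0.0141), with DESeq2 size factors (0.0424) and with no filter on low counts (0.0298), in a range of 0.00636 to 0.465. The gene drh-1, which codes for a RIG-I-like receptor of viral RNA, had 61.1 and 55.6 CPM in MI-OMU01 libraries and 64.5 and 66.5 CPM in OP50 libraries and did not pass (log2 fold change -0.17, edgeR adjusted p = 0.305).

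**Figure D5:**
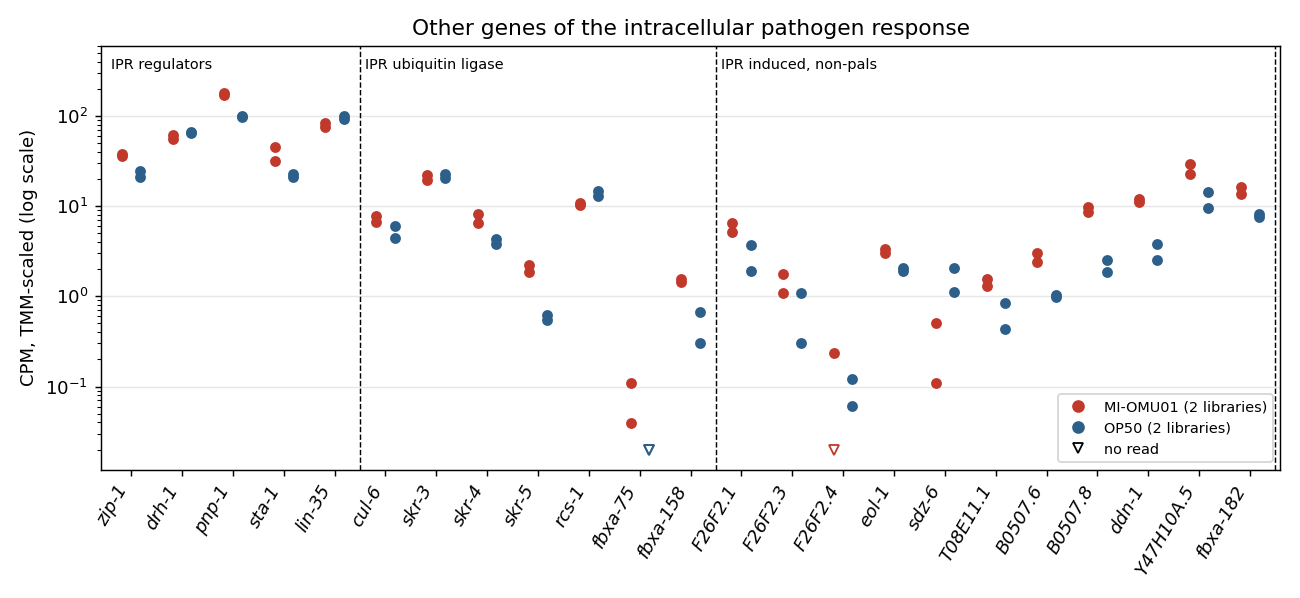
CPM in each library (log axis) of the 23 listed non-pals genes of the intracellular pathogen response, with MI-OMU01 points left of OP50 points and triangles at the bottom for libraries with no read. B0507.8 and ddn-1 show wide gaps between the groups, and drh-1, lin-35, rcs-1 and sdz-6 lie lower in MI-OMU01 libraries. The groups overlap for skr-3, F26F2.3 and F26F2.4.

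The related response to oomycetes, in which chitinase-like genes are induced and which pals-22 and pals-25 also control, was followed by 3 chil genes. Like the other lists, these 3 genes were chosen with earlier results of these data known. Across all tested genes 14.6% were called higher and 15.2% lower. For the pseudogene chil-28 the MI-OMU01 libraries held 58 and 128 reads and the OP50 libraries 0 and 1 read (edgeR adjusted p = 1.55e-07), and for chil-18 79 and 84 reads against 3 and 4 reads (edgeR adjusted p = 6.75e-07). Both were below the filter level in both OP50 libraries and were tested only through their MI-OMU01 reads, so these calls are not independent of the filter. The reporter gene of that response, chil-27, drew 2 and 5 reads in MI-OMU01 libraries and 2 and 4 reads in OP50 libraries. It was not tested.

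The RNA came from whole worms, so more cells of a type and more RNA per cell cannot be told apart. Of 6 intestinal marker genes 2 rose and 2 fell, beside the 14.6% and 15.2% of all tested genes called higher and lower. Their summed level was 1162 and 1349 CPM in MI-OMU01 libraries and 1565 and 1629 CPM in OP50 libraries. Most of that sum came from act-5 and ifb-2. The gene act-5 fell, with 541 and 608 CPM in MI-OMU01 libraries and 858 and 919 CPM in OP50 libraries, and ifb-2 overlapped between the groups. In both MI-OMU01 libraries elt-2, elt-7 and ges-1 lay above both OP50 libraries, and pept-1 lay below. The intestinal transcription factor gene elt-7 rose (log2 fold change 0.70, edgeR adjusted p = 0.0129; 0.000786 to 0.107 over the alternatives) and the peptide transporter gene pept-1 fell (log2 fold change -1.40, edgeR adjusted p = 6.04e-08). Epidermal and body wall muscle markers, 3 of each, had 1 and 2 lower and none higher, 1 of 3 germline markers was lower, and of 3 neuronal markers none was called. Some of these calls rested on single libraries: without MI-OMU01 replicate 1 those of elt-7 (0.107), ges-1 (0.0612), unc-15 (0.255), unc-54 (0.109) and glh-1 (0.0891) ended. Without MI-OMU01 replicate 2 the calls of ges-1 (0.264) and glh-1 (0.201) ended, and without OP50 replicate 1 those of elt-7 (0.0841), ges-1 (0.0917) and glh-1 (0.209). With all libraries kept, the calls of unc-15 (edgeR adjusted p = 0.0720) and glh-1 (0.160) ended with total counts as library sizes. That of glh-1 also ended with the filter of 5 CPM (0.0605), and that of ges-1 in DESeq2 (0.0533). With total counts lin-26 (edgeR adjusted p = 0.0311) and snb-1 (0.0152) were called higher. The part of tissue makeup in the pals values was not tested.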

How the data were processed

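Per the labels' protocols, poly(A) RNA was purified from total RNA and a stranded kit was used for the libraries. The authors deposited raw counts per gene, 1 table per library, and each table also lists exon length and position, per the file headers. The submitters' processing notes name featureCounts 1.6.4, STAR 2.7.2b, cutadapt 2.7, Trimmomatic 0.39 and Trim Galore 0.6.5, with the builds ce11 and WBcel235. How strand and shared reads were handled is not given in the sources used here, so counts of similar or overlapping pals genes are uncertain.

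After filterByExpr (count of at least 10, total of at least 15) and TMM scaling, genes were fitted with a robust quasi-likelihood model of group in edgeR 4.0.16 (R 4.3.3), adjusted over all tested genes at a threshold of 0.05. SE is the log2 fold change over the square root of F. Groups came from sample titles. Replicates differed beyond sampling noise (chi-square per gene 9.91 in MI-OMU01 and 11.3 in OP50), and were kept as separate samples. Alternatives were other scalings, DESeq2 1.42.0, limma-voom (limma 3.58.1), other filters, each library left out and a replicate block. The members, lists and alternatives were chosen with earlier results of these data known. Named were all called members, the 5 pals regulators, pals-5, 7 fixed partner genes and the largest partner changes. A few other members (pals-1, pals-2, pals-7, pals-18, pals-24, pals-28 to pals-30, pals-36 and pals-38) were added after their values were seen. So were the non-pals genes skr-3, lin-35, rcs-1, skr-4, fbxa-158, sta-1 and C29F9.2. F22G12.1, written in the partner list, is pals-14 and was counted with the pals genes. No sequences were used here.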

Additional observations from a re-analysis of the deposited data

How the results depend on the processing

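The fit reported above tested 26 pals genes, against 38 with no filter on low counts and 28 to 30 with 1 library left out. All genes called, higher or lower, numbered 4449 of 14967 in that fit, 4446 with DESeq2 size factors and 4912 with total counts. They numbered 3501 in DESeq2, 4482 in limma-voom, 4669 of 22417 with no filter and 3408 of 10393 with a filter of 5 CPM. The count of pals genes called higher (15) was 14 with DESeq2 size factors and 17 with total counts as library sizes. That count was 12 in DESeq2, 15 in limma-voom and 16 with no filter on low counts. It was 8 with a filter of 5 CPM in 2 libraries, which tested 11 members, and 12 to 15 when 1 library was left out; no pals gene was called lower under any of these alternatives. Of the 15 genes 10 passed under each alternative that tested them, and pals-3, pals-4, pals-23, pals-27 and pals-34 did not. With a library left out, the remaining single library is assumed to vary like the other group. All genes called numbered 4449, and 2935 to 4571 with a library left out. The 12 higher partner genes were 8 to 15 over all alternatives. Lower partner genes (1) numbered 2 with DESeq2 size factors, 2 with no filter and 0 with the 5 CPM filter. Signs turned for genes that were not called: with 1 library left out, log2 fold changes ran from -0.23 to 0.50 for pals-1, from -0.057 to 0.21 for pals-22, from -0.016 to 2.22 for pals-20 and from -0.16 to 0.029 for skr-3, and skr-3 was at 0.079 with total counts as library sizes; the cause was not tested. With total counts the log2 fold changes of all tested genes had a median of 0.16, against 0.03 with TMM.

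The titles number the replicates alike in both groups, but no label says that a number marks a shared batch. Deviations of same-numbered libraries correlated across genes at 0.21. With the replicate number as a block 5807 genes were called, with 17 pals genes higher and none lower, and 15 partner genes higher and 3 lower. The calls gained with the block were those of pals-24, pals-38, cul-6, T08E11.1 and eol-1, all higher, and of lin-35 and rcs-1, both lower. Summing near-identical pals copies was not run, because no protein sequences were used here.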
